A study of Ovis aries with 3 samples.

Results

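The CLDN7+ KRT7+ epithelial cells of whole sheep embryos are described here, 1290 of 31576 cells in 3 single-cell RNA libraries. A cell belonged to the group when it had at least 1 unique molecular identifier (UMI, 1 counted RNA molecule) of both *CLDN7* and *KRT7* and none of *TP63* or *CDH16*. In whole sheep embryos these 2 genes had been used as marks of gut cells, and *TP63* and *CDH16* set aside cells with marks of stratified or of nephric epithelium. Kept cells held 200 to 6000 genes and 1000 to 30000 UMIs, with no more than 10% of the UMIs on mitochondrial genes.

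The study asked how embryos of a short-tailed and a long-tailed sheep breed differ, and how they change between 2 stages. E19 HSTS was a Hulunbuir short-tailed sheep embryo at embryonic day 19, from a breed that carries a missense change in the T gene. E19 HS was a Hu sheep embryo of the same day, without that change, and E16 HS was Hu sheep at embryonic day 16. Each condition was 1 library. The E16 HS label names 1 embryo and the design text names 3, and this was not settled here. Because no condition was repeated, breed, embryo and library cannot be told apart within E19, nor stage, embryo and library within HS, and no difference between libraries was tested. All embryos were digested with collagenase and treated with red blood cell lysis buffer before 10x Genomics 3′ libraries were made.

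A simple epithelium is a single sheet of cells held together by tight junctions, whose seals are built of claudins, and by cadherin and desmosome contacts. Its inner filaments pair the keratins *KRT8* and *KRT18* with *KRT7* or *KRT19*, and *EPCAM* is an adhesion protein of its cell surfaces. In the early embryo such sheets include the gut endoderm, the surface ectoderm, the amnion, the trophoblast and the nephric duct. Gut endoderm is marked by the transcription factors *FOXA1*, *FOXA2* and *SOX17*, which open and read its gene program.

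The measured genes were those of an epithelium, and factors of gut endoderm were found in few of the cells, so the cells are called by their 2 genes below. Where 3 values follow each other they belong, in this order, to E19 HSTS, to E19 HS and to E16 HS. *EPCAM* had a UMI in 93.3%, 89.7% and 90.6% of the CLDN7+ KRT7+ cells, and *CLDN4* in 72.3%, 64.1% and 70.5%. At least 1 of *FOXA1*, *FOXA2*, *FOXA3* and *SOX17* had a UMI in only 3.90%, 3.70% and 8.83% of them, though in fewer of the other kept cells (0.653%, 0.808% and 0.478%).

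The group held 282 of 9618 kept cells, 351 of 10629 and 657 of 11329. These were shares of 2.93% (95% exact binomial interval 2.60 to 3.29), 3.30% (2.97 to 3.66) and 5.80% (5.38 to 6.25). The intervals here and below cover counting error only. The E16 HS share was the highest of the 3, and the intervals of the E19 libraries overlapped. The CLDN7+ KRT7+ cells were deeper than the other kept cells, with median UMIs of 10491 against 8585, 9262 against 6809 and 12518 against 8827. After each cell was thinned to 3000 UMIs the shares were 1.14%, 1.22% and 2.54%, and with at least 2 UMIs of both genes they were 1.41%, 1.46% and 3.46%.

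Free RNA can place a UMI in a cell that does not express a gene, so the rule was applied to erythroid reference cells, which had at least 3 UMIs of *AHSP* and 1 of *BLVRB*. Of these, 5 of 2586, 6 of 1418 and 32 of 2136 met the rule, with median UMIs of 17672, 17640 and 13976. The first 2 shares were 0.193% and 0.423%. Thinned to 3000 UMIs, 0 of 2571, 0 of 1412 and 9 of 2074 (0.434%) did. The background was thus highest in E16 HS, and lay below the share among all kept cells in each library. Of the CLDN7+ KRT7+ cells themselves, 5, 6 and 32 also met the erythroid definition, and 12.8%, 13.1% and 16.7% fell in the top 8% of doublet scores. Kept barcodes shared between libraries numbered 31 to 37 per pair, and none of them was a CLDN7+ KRT7+ cell in both libraries.

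**Figure D1:**
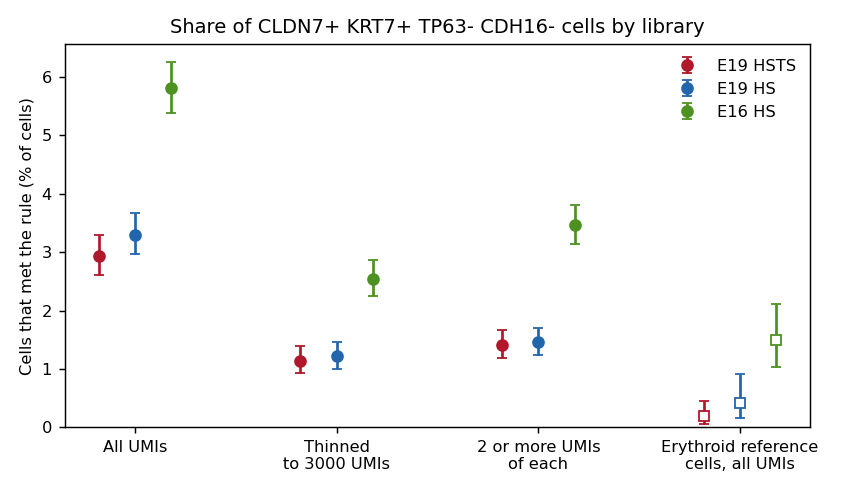
Share of cells (%) that met the CLDN7+ KRT7+ TP63- CDH16- rule in each library, with all UMIs, thinned to 3000 UMIs and with at least 2 UMIs of both genes, and the same rule in erythroid reference cells (open squares). Bars are 95% exact binomial intervals. E16 HS lies at 5.80% and both E19 libraries near 3%, and the erythroid reference cells lie below the kept cells of their library.

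The rule rests on few molecules per cell. *CLDN7* had a median of 3, 2 and 3 UMIs per CLDN7+ KRT7+ cell, and *KRT7* a median of 2, 2 and 3. A single UMI of each was all that 36, 43 and 81 cells had, and in these *EPCAM* was found in 80.6%, 79.1% and 66.7%. Just outside the rule, cells with *CLDN7* but no *KRT7* numbered 298, 337 and 741, with *EPCAM* in 47.0%, 59.9% and 54.4%. Cells with *KRT7* but no *CLDN7* numbered 75, 132 and 247, with *EPCAM* in 42.7%, 47.0% and 28.7%. Cells with neither gene had *EPCAM* in 4.88%, 7.20% and 13%, so the cells just outside the rule lay between the group and the rest. *TP63* set aside 26, 14 and 25 cells that had both genes, and *CDH16* set aside 63, 49 and 6.

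The gene content of the group was then described against all other kept cells, as the ratio of summed UMIs scaled to their total (CPM). This is the contrast the rule itself used, so the ratios are a description from which nothing is read. Past 2-fold higher lay 9.34%, 4.94% and 5.42% of the genes with at least 100 UMIs in the group of a library. Past 2-fold higher in all 3 libraries lay 59 of the 2743 genes with at least 100 UMIs in the group in each (2.15%), and past 2-fold lower lay 215 of 9093 (2.36%). TMM scaling, which corrects for the makeup of the summed cells, lowers every log2 ratio to the other cells by 0.54, 0.25 and 0.05. *KRT7* stood at 211, 224 and 396 CPM in the group, and *CLDN7* at 269, 279 and 301 CPM. After *KRT7*, the gene with the largest smallest ratio was *AP1M2*, the subunit of an epithelial adaptor that sorts proteins to the basolateral membrane. *AP1M2* was at 114, 119 and 153 CPM, which was 26.5, 22.9 and 21.4 times the other cells. *EPCAM* was 16.9, 12.3 and 8.91 times and *CLDN4* 11.4, 9.71 and 24.0 times the other cells.

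The other leading genes encode secreted, actin-binding and membrane proteins. *WFDC2*, a secreted whey acidic protein family member, was at 351, 203 and 1464 CPM. *CXCL14*, a chemokine, was at 530, 457 and 212 CPM, and *VMO1* at 89.6, 88.4 and 21.4 CPM. *WFDC2* was thus highest in E16 HS, and *CXCL14* and *VMO1* were lowest there. *S100A2*, a calcium-binding protein, followed the first pattern, at 184, 155 and 907 CPM. *TPD52L1*, the actin regulators *SCIN* and *PLS1*, the membrane protease *HPN*, *TMEM238* and *SHTN1* completed the 15, with ratios to the other cells between 5.50 and 19.7.

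Simple keratins were found in nearly all of the cells. *KRT18* had a UMI in 98.6%, 97.7% and 99.5% of them, and *KRT19* in 98.6%, 96.9% and 99.5%. The contrast with the rest was smaller at the earlier stage, where more of the other cells had them. *KRT18* was found in 30.8%, 34.2% and 63.9% of the other kept cells. *KRT18* was 6.90 and 5.60 times the other cells at E19 and 2.36 times at E16, and *KRT8* was 6.22, 4.67 and 1.95 times. In erythroid reference cells *KRT18* was found in 8.82%, 8.96% and 34.9%. The stratified keratin *KRT5* had 2, 3 and 3 UMIs in the whole group, and no stratified keratin reached 10 UMIs in each library.

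Junction genes followed. Of 13 adherens junction and desmosome genes in the files, 12 had at least 10 UMIs in the group in each library, and 7 were past 2-fold higher in all 3. Among all named genes, 270 of 6545 were (4.13%), the share to set beside each such list count below. The minimum was counted in the group, so a gene low there could not be called higher. Over the 11 junction genes with at least 100 UMIs among the kept cells of each library, the median log2 ratio was 3.04, 2.36 and 1.12. That of all such named genes was 0.49, 0.21 and -0.01. *CDH1*, the epithelial cadherin, was at 21.6, 26.4 and 14 CPM and was found in 21.3%, 21.7% and 15.7% of the cells, against 0.749% to 0.937% of the others. *TJP3*, a tight junction scaffold, was 27.0, 27.4 and 19.8 times the other cells. The desmosome gene *DSP* was 4.23 and 3.74 times at E19 and 1.36 times at E16, where it was found in 36.8% of the other cells. Of 10 claudins other than *CLDN7* in the files, 4 reached 10 UMIs, and *CLDN4*, *CLDN8* and *CLDN10* were past 2-fold higher in all 3 libraries.

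The regulators of epithelial identity were few in molecules, but those that could be counted were higher in the group. Of 11 epithelial transcription and splicing factors in the files, 4 reached 10 UMIs in each library. All 4 were past 2-fold higher in all 3, against 4.13% of all named genes. *GRHL2*, which maintains epithelial junction genes, was 31.6, 28.7 and 18.1 times the other cells, with a UMI in 7.80%, 5.13% and 9.59% of the group. The epithelial splicing factor *ESRP1* was 21.4, 17.2 and 19.1 times, and *ELF3* and *KLF5* were 5.91 to 11.5 times. Of 13 polarity and surface protease genes, 9 reached 10 UMIs and 7 were past 2-fold higher in all 3, against the same 4.13%. *RAB25*, a small GTPase of apical recycling, was at 27.6, 24.8 and 54.0 CPM and 30.1 to 33.7 times the other cells, and the protease gene *PRSS8* was 19.2 to 24.2 times.

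Genes of definitive gut endoderm were few in molecules, and only 3 of the 12 on the list had 100 UMIs among the kept cells of each library. Of the 12 on the list, only *VIL1*, a microvillus actin binder, had at least 10 UMIs in the group in each library, and it was not past 2-fold higher. *SOX17* had 0 UMIs in every library. With 3 cells taken as the limit for a count of 0, an approximation and not the exact interval, this allows up to 1.06%, 0.855% and 0.457% of the cells. *CLDN18* also had 0 in each, and *FOXA3* had 1 UMI in all. *FOXA1* had 8, 9 and 46 UMIs, in 2.48%, 2.56% and 6.39% of the cells, and *FOXA2* had 5, 5 and 18, in 1.42%, 1.42% and 2.59%. Both fell short of 10 UMIs in the E19 libraries, so neither could be counted as higher. Yet both were rarer outside the group, *FOXA1* in 0.161%, 0.195% and 0.206% of the other cells and *FOXA2* in 0.450%, 0.525% and 0.234%. At least 1 of the 4 factors was found in 0.653%, 0.808% and 0.478% of the other cells and in 0.0387%, 0.0705% and 0.281% of erythroid reference cells. In cells thinned to 3000 UMIs the share in the group was 0.722%, 0.862% and 1.88%. Of all kept cells with at least 1 of them, 11 of 72 (15.3%), 13 of 96 (13.5%) and 58 of 109 (53.2%) were CLDN7+ KRT7+ cells, so in E16 HS most of these few cells lay in the group. *VIL1* was found in 7.09%, 5.13% and 10.7% of the group and in 11.3%, 6.15% and 7.77% of the other cells. Regional gut genes gave a similar picture, with 4 of 14 at 10 UMIs and 0 past 2-fold higher in all 3. *PDX1*, a pancreas and duodenum factor, had 2, 0 and 0 UMIs, and *NKX2-1*, a lung and thyroid factor, had 7, 1 and 4.

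Surface ectoderm genes were found in more of the cells than those of gut endoderm. Of 16 in the files, 6 reached 10 UMIs in the group, and the others could not be called higher. All 6 were past 2-fold higher in all 3 libraries, against 4.13% of all named genes. They were *TFAP2A*, *TFAP2B*, *DLX5*, *GATA3*, *FRAS1* and *MSX2*. Over the 6 genes of the list with at least 100 UMIs among the kept cells of each library, the median log2 ratio was 3.25, 2.61 and 2.02. *TFAP2A*, an ectodermal transcription factor, was at 48.7, 39.9 and 17.7 CPM and its paralog *TFAP2B* at 89.0, 55.9 and 27.9 CPM. *DLX5*, a homeobox factor of ectoderm and placodes, was at 30.4, 36.4 and 11.1 CPM. All of *TFAP2A*, *TFAP2B* and *DLX5* were lowest in E16 HS. *GATA3*, a factor of ectoderm, trophoblast and nephric duct, ran the other way, at 17.4, 14.9 and 37.9 CPM. *TFAP2A*, *TFAP2B* and *GATA3* also stand on the amnion list, so a lineage cannot be read from them alone.

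At least 2 of *TFAP2A*, *TFAP2B* and *DLX5*, a set chosen after values were seen, were found together in 28.7%, 21.9% and 12.2% of the CLDN7+ KRT7+ cells. The same held for 1.60% to 1.72% of the other kept cells and for 0.155%, 0.282% and 0.702% of erythroid reference cells. Thinned to 3000 UMIs, the shares in the group were 7.22%, 6.32% and 2.66%. Of all kept cells that had them, 33.5%, 30.3% and 31.9% were CLDN7+ KRT7+ cells, so most cells with these factors lay outside the group.

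**Figure D2:**
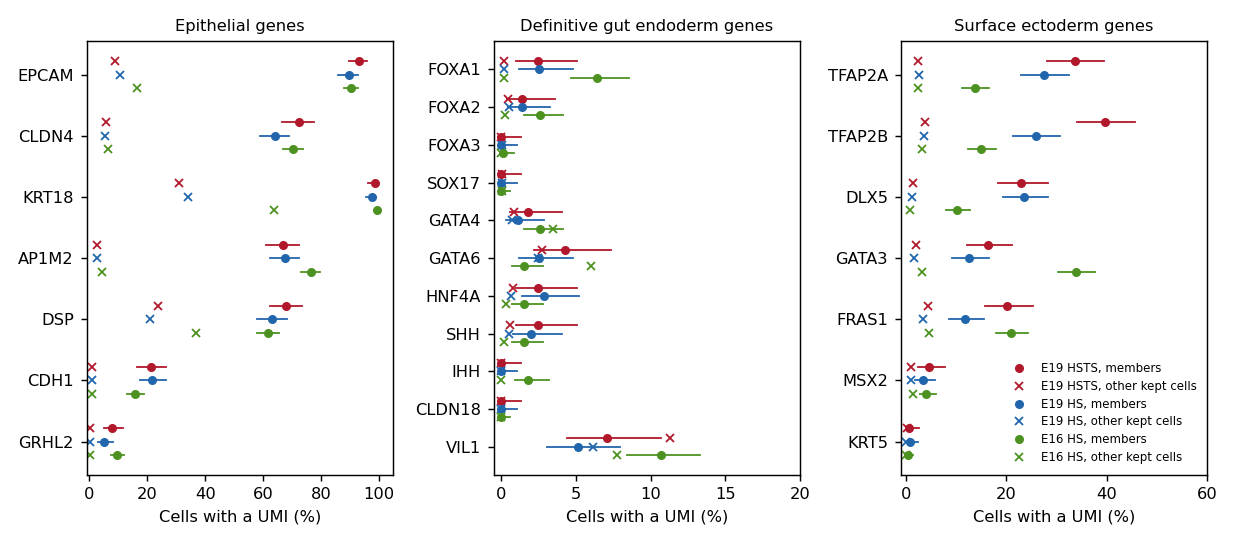
Share of cells (%) with a UMI of epithelial, definitive gut endoderm and surface ectoderm genes in the CLDN7+ KRT7+ cells (circles, with 95% exact binomial intervals) and in the other kept cells (crosses) of each library; the x axes differ in range. *EPCAM* and *KRT18* are found in most of the group, *FOXA1* in 2.48% to 6.39% and *SOX17* in none, and *TFAP2A* in 13.7% to 33.7%.

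Of the amnion list, 7 of 13 genes reached 10 UMIs and 3 were past 2-fold higher in all 3 libraries. Besides the shared factors, *GABRP*, an amnion-associated receptor subunit, had 27, 6 and 23 UMIs, and *VTCN1* had none. Of the trophoblast list, 4 of 13 genes in the files reached 10 UMIs and *ELF5*, *GATA3* and *PTGS2* were past 2-fold higher in all 3. *ELF5*, an epithelial and trophoblast factor, was at 6.61, 5.23 and 15.2 CPM. Of the yolk sac and hepatic endoderm list, 15 of 18 reached 10 UMIs and only *AMBP* was past 2-fold higher in all 3.

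Genes of mesenchyme, vessels and blood were lower in the group. Past 2-fold lower in all 3 libraries lay 8 of 11 mesenchyme and somite genes, 6 of 10 endothelial genes and 7 of 8 erythroid genes in the files. Among all named genes that could be counted this way, 432 of 10777 were (4.01%). *VIM*, the filament protein of mesenchyme, was 3.86-fold, 4.98-fold and 5.28-fold lower than in the other cells. *TWIST1*, *ZEB1* and *ZEB2*, repressors of epithelial genes, were 4.57-fold to 14.5-fold lower. *AHSP*, the chaperone of alpha globin, was 20.9-fold, 12.7-fold and 7.54-fold lower, yet it was found in 12.4%, 3.99% and 32.0% of the group. In other kept cells *AHSP* was found in 33.6%, 15.3% and 39.5%. The part of free RNA and doublets in this was not tested. Lists of other lineages gave few shared calls. Mesothelium and notochord lists had 0 genes with 10 UMIs in the group in each library, so none could be called higher. Of 2 caudal progenitor, 5 neural progenitor and 3 neuron genes that reached 10 UMIs, 0 were past 2-fold higher in all 3. The median log2 ratio of the caudal list was 2.80, 2.13 and -0.20. It rested on only 2 of its 13 genes, those with at least 100 UMIs among the kept cells of each library. Of 4 nephric genes *GATA3* was past 2-fold higher in all 3, and of 2 neural crest genes *ERBB3* and *TFAP2B* were.

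On the cardiomyocyte list 1 gene was higher in the group in all 3 libraries. This was *TNNI1*, a troponin subunit of slow muscle, at 165, 120 and 58.5 CPM, with a UMI in 54.6%, 48.7% and 43.5% of the group and in 11.1% to 15.9% of the other cells. *MYL7*, which defines atrial muscle, was found in only 1.77%, 0.855% and 0.761% of the group, so the list as a whole did not follow *TNNI1*.

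Among signals and their receptors, *PDGFA*, a ligand for mesenchymal PDGF receptors, was at 115, 88.7 and 77.8 CPM and 8.09, 8.04 and 4.56 times the other cells. *BMP7* was at 59.8, 47.7 and 87.9 CPM and 5.23, 3.83 and 3.27 times. *BMP2* was the only other of 27 ligands past 2-fold higher in all 3. The receptor for platelet-derived growth factor, *PDGFRA*, was 4.38-fold to 8.30-fold lower in the group than in the other cells. Of 17 receptors, *ERBB3*, *MET*, *FZD6* and *SDC4* were past 2-fold higher in all 3. *ERBB3* was 6.20, 5.71 and 8.04 times the other cells, and *MET*, the receptor of hepatocyte growth factor, was 4.55, 3.89 and 16.1 times. Of the integrins and basement membrane genes, *ITGA6* and *ITGA3* passed 2-fold in all 3. Cell cycle genes did not set the group apart, with 0 of 11 past 2-fold in either direction in all 3.

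The group was not uniform. Clustered on their own, the CLDN7+ KRT7+ cells formed 6 clusters of 416, 380, 314, 69, 68 and 43 cells. The clusters were made from these genes, so their leading genes are a description. Clusters 1 and 2 were the broad bulk and came from all 3 libraries. Under the other cluster settings, the largest part of cluster 1 that stayed together held 36.8% to 63.2% of its cells. For cluster 2 it held 57.6% to 94.7%, so values within these clusters depend on the setting. Cluster 1 was led by *IGFBP6*, *CXCL14*, *FILIP1L* and *CRABP1*. Cluster 2 was led by *CLDN10*, the histone gene *H1-5* and *SOX2*, and had *TOP2A*, a gene of dividing cells, in 93.9% of its cells against 38.0% in cluster 1. *TFAP2A* was found in 23.3% and 27.6% of clusters 1 and 2. Neither cluster could be named, since the marker genes among the 10 leading genes stood on lists of several cell types, *TFAP2B* in cluster 1 and *SOX2* and *TNNC1* in cluster 2.

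Cluster 3 had *EVPL*, *S100A5* and the uroplakins *UPK2*, *UPK3A* and *UPK1B* among its leading genes. Uroplakins build the rigid plaques on the urinary lining, and *EVPL* encodes envoplakin, a plakin of cell envelopes. *UPK3A* had a UMI in 83.8% of cluster 3 cells and *PPARG*, a nuclear receptor, in 43.9%. *TFAP2A* was found in 0.955% and *TFAP2B* in 1.59% of these cells. Cluster 3 also had *GATA3* in 51.0%, *MET* in 40.8% and the posterior homeobox genes *HOXA13* and *HOXA11* in 24.5% and 26.1% of its cells. *FOXA1* was found in 8.92% of cluster 3, the highest share among the 6. Of its 314 cells, 307 came from E16 HS, and 123 and 172 other cells of E16 HS lay in clusters 1 and 2. After integration across libraries (RPCA), 262 of the 314 cells (83.4%) stayed together. Whether the library or a cell type sets cluster 3 apart was not tested, and it was left unnamed.

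The 3 small clusters carried marks of other sheets. Cluster 4 was led by *GABRP*, *TAC3*, *SPP1* and *HAND1*, with *POSTN* in 94.2% of cells and *TFAP2A* and *TFAP2B* each in 62.3%. Amnion and trophoblast lists tied among its leading genes, with 2 each, and *POSTN* stood on the mesenchyme list, so it stayed unnamed. In at least 10% of its cells 8 of 13 amnion, 8 of 16 surface ectoderm and 5 of 13 trophoblast genes were found. Cluster 5 was led by *SLC12A1*, *DCDC2*, *CALB1* and *LHX1*, and 6 of 12 nephric epithelium genes were found in at least 10% of its cells. *EMX2* was found in 77.9%, *LHX1* in 44.1% and *RET* in 19.1% of cluster 5. No other cell type list had a gene among its 10 leading genes, so it was called nephric epithelium-like. The name rests on *LHX1* alone among those 10, *CDH16* was at 0 by the rule, and *PAX2*, a defining nephric gene, was found in only 2.94%. Cluster 6 was led by *SPP2*, *SERPINA6* and *LECT2* and had *APOA2*, a lipoprotein gene of yolk sac and liver, in 72.1% of cells. At a finer resolution cluster 6 held 1 set of 24 cells with *AHSP* in all 24 and a median of 23129 UMIs. The other set had 19 cells, with *APOA2*, *AFP* and *SERPINA1* in all 19 and *AHSP* in 1, so cluster 6 stayed unnamed.

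**Figure D3:**
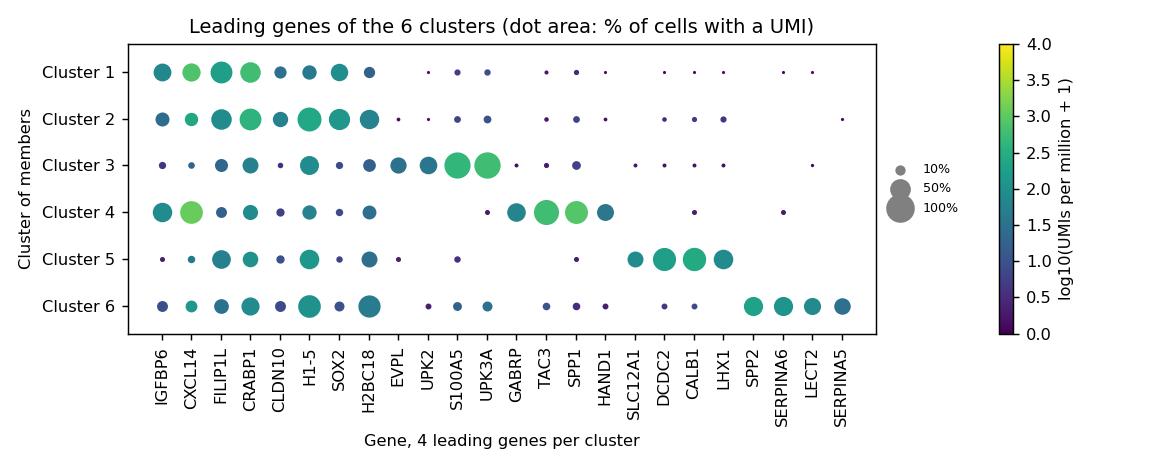
The 4 leading genes of each of the 6 clusters of CLDN7+ KRT7+ cells. Dot area is the share of the cluster's cells with a UMI (%), and colour is log10(CPM + 1). *UPK3A* and *S100A5* mark cluster 3, *TAC3* cluster 4 and *CALB1* cluster 5.

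The uroplakin cells were also counted without clusters, with a gene set chosen after values were seen. At least 2 of *UPK1B*, *UPK2* and *UPK3A* were found together in 1 of 282, 3 of 351 and 172 of 657 CLDN7+ KRT7+ cells. The E16 HS share was 26.2% (22.9 to 29.7), and 7.82% (5.86 to 10.2) when thinned, against 0% and 0.287% in the thinned E19 libraries. They were found in 0, 0 and 12 of the other kept cells and in 0.328% of the erythroid reference cells of E16 HS. Of the 184 kept cells of E16 HS with them, 172 (93.5%) were CLDN7+ KRT7+ cells. *UPK3A* alone was found in 286 of 657 CLDN7+ KRT7+ cells of E16 HS and in 120 of 10672 other kept cells. Of the 406 kept cells with it, 286 (70.4%) lay in the group. The 3 uroplakins led cluster 3 of these same cells, so these counts are a description and no separate evidence. In this library most cells with the set lay inside the group, while most with the *TFAP2A*, *TFAP2B* and *DLX5* set lay outside it.

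The sets that follow were also chosen after values were seen, and none of them reached the uroplakin share of E16 HS. At least 2 of *GABRP*, *TAC3* and *HAND1* were found in 4.96%, 1.99% and 1.67% of the group, where the other cells had 0.0536%, 0.0681% and 0.450%. At least 2 of *LHX1*, *EMX2* and *PAX8* were found in 7.09%, 1.99% and 2.28%, against 2.07%, 1.52% and 1.28%. At least 2 of *APOA2*, *AFP* and *FGG* were found in 4.26%, 3.42% and 1.22%, against 1.62%, 1.18% and 0.965%. The interval of the nephric set in E19 HSTS (4.39 to 10.7) lay above that in E19 HS (0.805 to 4.07), and when thinned the 2 overlapped, at 1.81% (0.589 to 4.16) and 0.575% (0.0697 to 2.06).

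**Figure D4:**
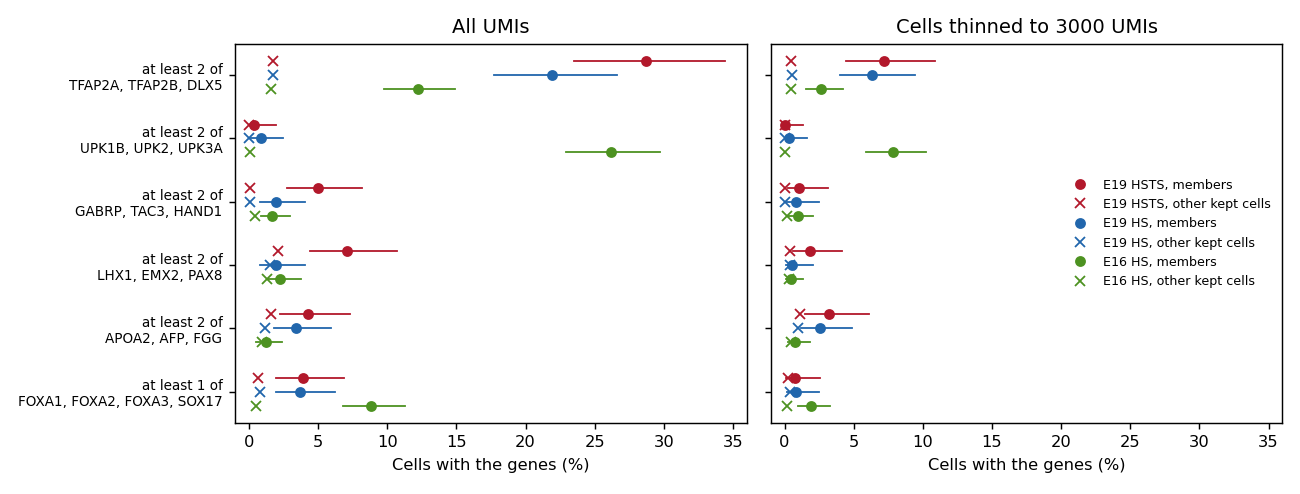
Share of cells (%) in which the named genes were found together, in CLDN7+ KRT7+ cells (circles, with 95% exact binomial intervals) and in the other kept cells (crosses), with all UMIs and with cells thinned to 3000 UMIs. The uroplakin set lies at 26.2% in E16 HS and below 1% in both E19 libraries, and the *TFAP2A*, *TFAP2B* and *DLX5* set is lowest in E16 HS.

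Within the group, E19 HSTS was compared with E19 HS, the 2 breeds at the same stage. Past 2-fold higher in E19 HSTS lay 44 of the 3107 genes with at least 100 UMIs in the higher library (1.42%), and past 2-fold lower lay 18 (0.579%). With TMM scaling, which lowers each log2 ratio here by 0.20, the split was 28 higher and 27 lower. The median log2 ratio of all tested genes was 0.16. *EPCAM*, which the rule did not use, was at 340 and 297 CPM (ratio 1.14, 95% exact Poisson interval 1.05 to 1.24). None of the 4 junction genes, 3 polarity genes and 3 surface ectoderm genes with enough UMIs passed 2-fold. *TFAP2B* was at 89.0 and 55.9 CPM, a ratio of 1.59 (1.33 to 1.91).

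The genes highest in E19 HSTS were mostly of heart muscle, and their ratios rested on few cells. *MYL7* had 515 UMIs against 26, a ratio of 21.6 (14.6 to 33.4), and 511 of the 515 lay in 2 cells of cluster 2. *MYL2*, *TNNT2*, *MYH7*, *ACTC1*, *MYL4* and *MYL3*, which encode parts of the heart's contractile filaments, had ratios of 5.74 to 32.2. In the other kept cells these 7 genes had ratios of 0.870 to 1.26. At least 3 of *MYL7*, *TNNT2*, *ACTC1*, *NPPA*, *MYH6*, *MYL4* and *NKX2-5* were found in 3, 1 and 2 CLDN7+ KRT7+ cells. Without those cells *MYL2*, *TNNT2*, *MYH7* and *MYL3* were lower in E19 HSTS than in E19 HS, *MYL7*, *ACTC1* and *MYL4* were 2.12 to 2.79 times higher, and 35 genes were past 2-fold higher. *SPP1*, the secreted phosphoprotein osteopontin, had 435, 23 and 325 UMIs, a ratio of 20.6 (13.6 to 32.9) between the E19 libraries. Of the 435, 434 lay in 14 of the 24 cells of cluster 4, where E19 HS had 19 UMIs in 5 of 19 cells and E16 HS 269 in 24 of 26. The *MYL7* and *SPP1* differences thus rest on 2 and 14 cells.

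Most of the genes lower in E19 HSTS were lower in the rest of the embryo too, and most of those higher were not past 2-fold there. *GAPDH*, a glycolytic enzyme, had 26, 6592 and 15341 UMIs. It was 232-fold lower in E19 HSTS than in E19 HS in the group and 328-fold lower in the other kept cells. No reads were used here, so a difference in annotation or counting between the libraries was not checked, and the value is not read as expression. *QDPR*, a pterin reductase, was 3.62 times higher in the group and 3.56 times in the other cells. *BNIP3*, a mitophagy receptor, was 2.36-fold lower in the group and 2.24-fold lower in the other cells. Of the 18 genes lower in E19 HSTS, 14 (77.8%) were also past 2-fold lower in the other kept cells, and of the 44 higher, 9 (20.5%) were also past 2-fold higher there. *TSPO*, a mitochondrial outer membrane protein, was 2.93-fold lower in the group and 1.16-fold lower outside it. *SIX6*, a homeobox gene of eye and pituitary, had 47 UMIs against 224 and was 4.37-fold lower in the group, 3.97-fold lower within clusters 1 and 2, and 2.56-fold lower outside. *MRTO4*, *CCDC151*, *GSTM3*, *CDC42EP5* and *MT2* were 2.25-fold to 3.09-fold lower, and *SERHL2*, the last of the 10, was at 24.6 and 54.3 CPM. *DCDC2*, a microtubule-binding gene, was 3.67 times higher in E19 HSTS, and 104 of its 111 UMIs lay in cluster 5.

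E16 HS was compared with E19 HS, the same breed at 2 stages. Past 2-fold higher at E16 lay 301 of 4291 genes (7.01%), and past 2-fold lower lay 97 (2.26%). The minimum was a UMI count in the higher library, and the group held 8882887 UMIs in E16 HS against 3629556 in E19 HS. A gene higher at E16 thus met the minimum at a lower CPM than a gene lower at E16. The uneven split between higher and lower is therefore partly set by depth and is not read as a direction of change. The median log2 ratio of all tested genes was 0.25. Of the 301, 117 (38.9%) were also past 2-fold higher in the other kept cells. Without cluster 3, 109 of 3493 genes (3.12%) were past 2-fold higher, and 62 of these were among the 301. Of the 97, 47 (48.5%) were also past 2-fold lower in the other cells. Cluster 3 held 307 of the 657 E16 HS cells and 4 of the 351 E19 HS cells, so different clusters made up the group at the 2 stages. Both library comparisons share the E19 HS cells.

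The uroplakin genes led the list at E16. *UPK3A* had 12, 37 and 2754 UMIs and was 30.4 times E19 HS (22.0 to 43.3). *UPK2* had 0, 1 and 164 UMIs (ratio 67.0, 11.9 to 2663), and *UPK1B* had 1, 4 and 228 (23.3, 8.97 to 86.2). *S100A5* had 11, 18 and 1996 UMIs and was 45.3 times E19 HS (28.6 to 76.6). *EVPL* had 133 UMIs against 1 (54.3, 9.59 to 2162) and *PPARG* 258 against 3 (35.1, 11.9 to 172). All of these were low in both E19 libraries and most of their UMIs lay in cluster 3. Within clusters 1 and 2 alone, *UPK3A* had 52 UMIs at E16 against 14, a ratio of 3.00, and *S100A5* had 35 against 5. *AQP8*, a water channel, had 136 UMIs against 2 (27.8, 7.55 to 232). *TMEM45B*, *SDR16C5*, a retinol dehydrogenase, and *DEGS2*, a sphingolipid enzyme, were 14.6 to 25.6 times E19 HS.

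More widely detected genes were higher as well. *WFDC2* was 7.22 times E19 HS (6.70 to 7.79) and *S100A2* 5.86 times (5.38 to 6.39), and most of this too lay in cluster 3, which held 12136 of the 13007 *WFDC2* UMIs of E16 HS. Within clusters 1 and 2 *WFDC2* was 1.96 times and *S100A2* was 1.74-fold lower. *HSPB1*, a small heat shock protein, was at 721 and 2701 CPM, a ratio of 3.75, and 2.18 within clusters 1 and 2. *RAB25* and *MAL2*, both of apical trafficking, were the 2 of 7 polarity genes past 2-fold higher, against 7.01% of all genes tested. None of the 7 junction genes passed 2-fold.

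Several homeobox genes of the HOX clusters, which set position along the body axis, were higher at E16. Of 10 with enough UMIs, 8 were past 2-fold higher and 0 lower, with a median log2 ratio of 1.40. Among all genes tested, 7.01% were past 2-fold higher and 2.26% lower. No HOX gene had enough UMIs to be counted between the 2 E19 libraries. The 10 thus met the minimum through E16 HS, which left genes lower at E16 little room to be counted. *HOXC9* had 392 UMIs at E16 against 39, a ratio of 4.11 (2.95 to 5.86), while in the other kept cells it was 1.14. *HOXC9* was higher also within clusters 1 and 2, at 6.21 times. *HOXC6* was 4.59 times and *HOXA11* 4.39 times E19 HS. *HOXA13*, the most posterior of its cluster, had 9, 0 and 106 UMIs, at least 14.4-fold higher in E16 HS than in E19 HS with 3 counts as the floor per library. Of its 106 UMIs, 97 lay in cluster 3. *HOXC4*, *HOXA6*, *HOXB7* and *HOXB9* were 2.10 to 2.68 times E19 HS. *CDX2*, a posterior regulator upstream of HOX genes, was 3.15 times E19 HS in the group and 8.44 times in the other cells.

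Surface ectoderm factors were lower at E16, but not in every cluster. Of 5 genes of that list with enough UMIs, 3 were past 2-fold lower and *GATA3* was past 2-fold higher. Among all genes tested the shares were 2.26% lower and 7.01% higher. *TFAP2A* was 2.26-fold lower (1.79 to 2.85), *TFAP2B* 2.00-fold lower (1.66 to 2.42) and *DLX5* 3.26-fold lower (2.50 to 4.28) than in E19 HS. Within clusters 1 and 2 together they were 1.39-fold, 1.03-fold and 2.06-fold lower. *TFAP2B* was at 53.5 CPM in E19 HS and 124 CPM in E16 HS within cluster 1, a ratio of 2.32 (1.77 to 3.06), and at 55.1 and 14.3 CPM within cluster 2, 3.85-fold lower. At this cluster setting the 2 clusters thus went opposite ways for *TFAP2B*, and whether this holds at other settings was not tested. *GATA3* was 2.55 times E19 HS and *ELF5* 2.90 times, at 1.51 and 1.56 times within clusters 1 and 2. *SOX2*, a factor of neural and foregut progenitors, was 2.82-fold lower in the group and 2.54-fold lower outside it.

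The 10 genes lowest at E16 included yolk sac and liver genes and the immediate early gene *FOS*, besides *SIX6*, *DLK1*, *TSEN15* and *MT3*. *SPP2* had 65, 106 and 0 UMIs, at least 86.5-fold lower than in E19 HS. *SERPINA1* had 624 UMIs at E16 against 3731, 14.6-fold lower, and *APOA2* had 565 against 2635, 11.4-fold lower. Most E19 HS molecules of *APOA2*, 2608 of 2635, lay in the 15 cells of cluster 6. Within clusters 1 and 2 *APOA2* was 12.4 times and *SERPINA1* 6.73 times E19 HS, the opposite direction, and 306 of the 565 *APOA2* UMIs of E16 HS lay in 22 cells of cluster 1. Of 11 yolk sac and hepatic genes with enough UMIs, 8 were past 2-fold lower at E16, against 2.26% of all genes tested. *AMBP* and *FGG* were among them at 28.7-fold and 6.86-fold. In E19 HS *AMBP* had 488 UMIs in cluster 6, against 4 in cluster 1 and 10 in cluster 2. Such a count can thus rest on few cells. *FOS*, an immediate early transcription factor, had 881, 661 and 73 UMIs and was 22.2-fold lower than in E19 HS in the group and 36.3-fold lower in the other cells. *SIX6* had 13 UMIs at E16 and was 42.2-fold lower. *DLK1*, a membrane regulator of differentiation, was 8.53-fold lower in the group and 2.14-fold lower outside. *TSEN15* and *MT3*, a metallothionein, were 8.48-fold and 7.90-fold lower, and 5.32-fold and 6.65-fold lower outside.

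**Figure D5:**
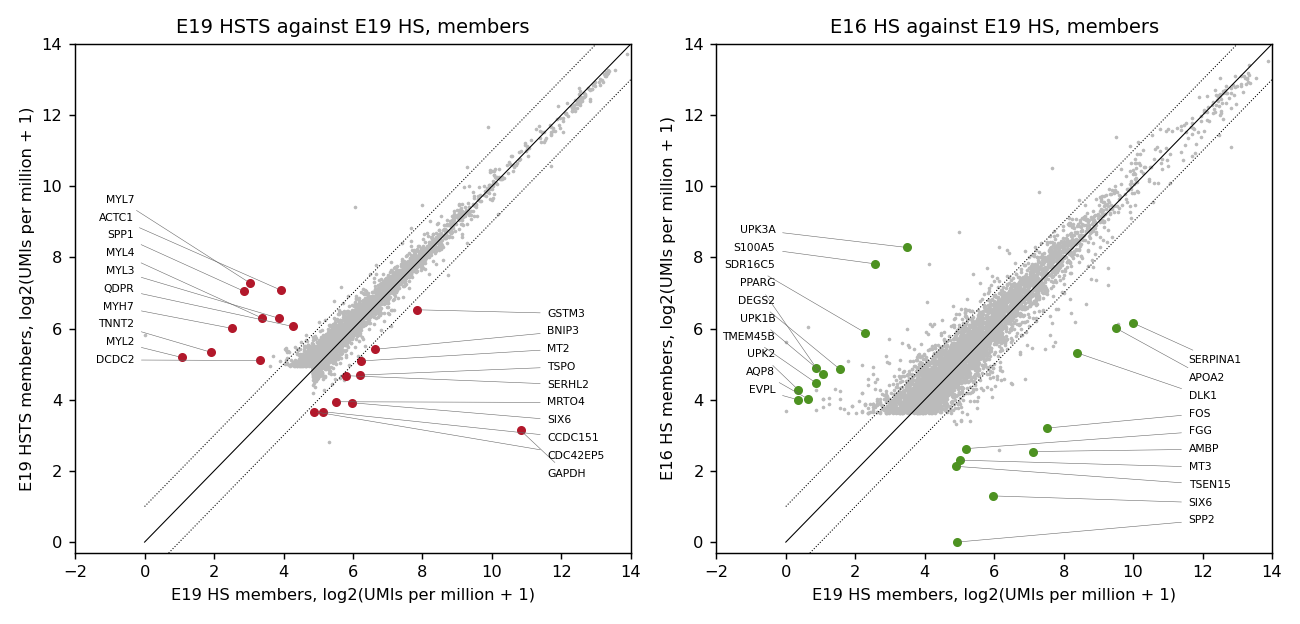
Levels of each gene in the CLDN7+ KRT7+ cells of E19 HSTS (left) and E16 HS (right) against E19 HS, as log2(CPM + 1), for genes with at least 100 UMIs in either library. The solid line marks equal levels and the dotted lines 2-fold. Labelled genes are the 10 with the largest ratio on each side, with *UPK3A* and *S100A5* far above the line at E16 and *GAPDH* far below it in E19 HSTS.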

How the data were processed

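Whole sheep embryos were profiled with 10x Genomics 3′ v3.1 chemistry in 3 libraries. The submitters' processing notes name Cell Ranger 6.1.2, R 4.1.2, Seurat 4.1.1 and the build Ovis_aries_genome_v1.0, and whether intronic reads were counted is not given in the sources used here. The values the authors deposited are raw UMI counts per gene and barcode, 107817481, 94754580 and 128271878 UMIs in 11114, 12064 and 12645 barcodes, E19 HSTS first and E16 HS last. Genes carry Ensembl identifiers, and 16670 of 26478 have a symbol. Of 385 genes on 32 lists, 345 were found.

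Counts of a group of cells were summed per library and divided by their total (CPM). Ratios have 95% exact Poisson intervals (ratio of 2 counts) and shares 95% exact binomial (Clopper-Pearson) intervals, from scipy 1.17.1, pandas 2.3.3 and numpy 2.4.6 under Python 3.11.15. With 1 library per condition there was no test, and a gene was counted when past 2-fold with at least 100 UMIs in the higher group. List medians used counts with 0.5 added, and those against the other cells covered genes with at least 100 UMIs among the kept cells of each library. A gene at 0 was set to 3 counts for a ratio. Clusters were made in R 4.3.3 with Seurat 5.3.0 (2000 variable genes, 25 principal components, resolution 0.25, seed 1). No doublets were removed; Scrublet scores came from scanpy 1.11.5 at a rate of 8%.

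The genes named are the 15 with the largest smallest ratio to other kept cells, the 10 largest per direction in each library comparison, the 10 leading per cluster, and list genes. The members and lists were chosen with earlier results of these data known. *FOXA1*, *TFAP2A*, *HOXA13*, *GATA3* and other genes followed across clusters or libraries were chosen after their values were seen. On counts simulated from the summed E19 HS and E16 HS counts of the group, 198 of 200 genes changed 4-fold were recovered among 3709 tested. Of 3511 unchanged genes, 1 was called. The simulation had counting error only, without spread between cells, clusters or embryos. It therefore does not say how many of the calls reported here would repeat.

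The alternatives were TMM scaling in edgeR 4.0.16, minimums of 50 and 200 UMIs, cells thinned to 3000 UMIs (1106, 1345 and 1317 shallower cells left out), at least 2 UMIs of both genes, a stricter filter (500 genes, 5% mitochondrial), all deposited cells, *EPCAM* required, the mean over cells, and other cluster settings. Leaving out doublet-scored cells was among them. Leaving out erythroid reference cells, cells with at least 3 of 7 cardiac genes or cluster 3, and clusters 1 and 2 alone, were chosen after seeing the data. The E16 HSTS cells of the study were not analysed here. 1 gene of the lists is not reported here by name or value.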

Additional observations from a re-analysis of the deposited data

Results flagged for a closer look

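For *AQP8*, *SPP1* and *MYL3* the level in the CLDN7+ KRT7+ cells stood past 2-fold above the other kept cells in 1 library and past 2-fold below them in another. None of these differences was tested, since each library is a single sample. *AQP8* was 7.35 times the other cells in E19 HSTS (62 UMIs, of which 61 lay in 2 cells of cluster 6) and 2.39 times in E16 HS (136 UMIs, of which 84 lay in cluster 3), against a ratio of 0.353 in E19 HS from 2 UMIs. *SPP1* was 14.8 times the other cells in E19 HSTS and 0.461 times in E19 HS, and 434 of its 435 UMIs in E19 HSTS lay in cluster 4. *MYL3* was 2.37 times the other cells in E16 HS, where it was found in 12.9% of the group, and 0.158 times in E19 HS. The part of single cells, doublets and free RNA in these values was not tested.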

How the results depend on the processing

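The share of CLDN7+ KRT7+ cells stood highest in E16 HS under all 6 alternatives run. With at least 2 UMIs of both genes it was 1.41%, 1.46% and 3.46%, and thinned to 3000 UMIs 1.14%, 1.22% and 2.54%. With *EPCAM* required it was 2.96% in E19 HS and 5.25% in E16 HS, and in E16 HS 6.29% over all deposited cells and 5.27% without doublet-scored cells. Genes past 2-fold higher than the other cells in all 3 libraries numbered 59, and 102 at a minimum of 50 UMIs, 28 at 200 UMIs, 13 thinned and 27 with at least 2 UMIs of both genes. The 215 lower became 141 thinned, 314 with TMM scaling, 296 at 50 UMIs, 155 at 200 UMIs, 263 with at least 2 UMIs of both genes, 231 without doublet-scored cells, 264 as the mean over cells and 268 without erythroid reference cells. For E19 HSTS against E19 HS the 44 higher became 28 with TMM scaling, 86 at 50 UMIs, 21 at 200 UMIs, 9 thinned and 28 in clusters 1 and 2 alone. The 18 lower became 33 at 50 UMIs, 10 at 200 UMIs and 7 thinned, and 27 with TMM scaling. For E16 HS against E19 HS the 301 higher became 457 at 50 UMIs, 194 at 200 UMIs, 106 thinned, 128 in clusters 1 and 2 alone and 109 without cluster 3. The 97 lower became 192, 57, 29, 39 and 57 in the same order. As a share of genes tested, the 7.01% higher at E16 became 5.80% thinned, 4.17% in clusters 1 and 2 and 3.12% without cluster 3. The 6 clusters became 11 at resolution 0.5, 13 at resolution 1.0 and 10 with RPCA integration. Of the ratios of single genes, 18 turned direction. With at least 2 UMIs of both genes the E19 HSTS level over the E19 HS level was 0 for *MYL2* and *TNNT2*, 0.0383 for *MYL7*, 0.166 for *MYH7*, 0.813 for *ACTC1*, 0.225 for *MYL4* and 0.0511 for *MYL3*. Without doublet-scored cells it was 0 for *MYL2*, 0.664 for *TNNT2* and 0.511 for *MYL3*. Without cells that carry 3 cardiac genes it was 0.557 for *MYL2*, 0.668 for *TNNT2*, 0.771 for *MYH7* and 0.538 for *MYL3*. In clusters 1 and 2 alone it was 0 for *SPP1*, and the ratio of E16 HS to E19 HS was 6.73 for *SERPINA1*, 12.4 for *APOA2* and 1.35 for *FGG*. The causes were not tested. No paired analysis was possible because each condition was 1 library with no replicate number. Depth limits single genes: a gene at 0 in a library may have up to 3 counts there, and factors such as *FOXA2* rest on 5 to 18 UMIs.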

Other observations

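Cells that had *CLDN7* and *KRT7* but were set aside for *TP63* were few, 26, 14 and 25 (E19 HSTS first, E16 HS last). *CXCL14* stood at 1724, 864 and 897 CPM in them, against 530, 457 and 212 CPM in the CLDN7+ KRT7+ cells, and *TFAP2B* at 154, 180 and 116 CPM against 89.0, 55.9 and 27.9 CPM. Cells set aside for *CDH16* numbered 63, 49 and 6. *CALB1*, a calcium-binding protein, stood at 263, 481 and 54.6 CPM in them, against 42.7, 15.7 and 5.85 CPM in the CLDN7+ KRT7+ cells, and *CXCL14* at 3.35, 1.73 and 0 CPM. These genes were chosen after their values were seen and the differences were not tested. *RPS6*, a ribosomal protein gene, had 10730 UMIs in the CLDN7+ KRT7+ cells of E19 HSTS and 3457 in those of E19 HS, a ratio of 3.39 where the other kept cells had 2.94.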
